A study of Mus musculus with 18 samples.

Results

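Heat shock chaperones of the cytosol and of the mitochondrial matrix were followed in mouse liver by bulk RNA sequencing. The set held 10 genes, picked as a named family, and the choice was made with earlier results of these data known. It held 8 cytosolic members (*Hspa1a*, *Hspa1b*, *Hspa8*, *Hsph1*, *Dnajb1*, *Bag3*, *Hsp90aa1* and *Hsp90ab1*) and 2 mitochondrial members (*Hspd1* and *Hspe1*). All 10 were found among the 15052 genes of the deposited table. The 18 livers came from 4 pair-fed wild-type (WT) mice, 5 pair-fed *Apoe* knockout (KO) mice, 5 ethanol-fed WT mice and 4 ethanol-fed KO mice. Every mouse was 10 to 12 weeks old and was first accustomed to liquid diet for 5 days. Ethanol-fed mice then took 5% (v/v) ethanol in the diet for 10 days and a gavage of 5 g/kg ethanol on day 11. Pair-fed mice took an isocaloric diet and a gavage of 9 g/kg dextrin-maltose, and all livers were taken 9 h after the gavage. The contrast of diets therefore held both the feeding and the binge, which cannot be told apart. WT mice were C57BL/6J, and the *Apoe* KO line was bought from the same supplier. Its knockout is carried in every cell of the body, so that no cell type is singled out by it.

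Heat shock chaperones bind unfolded protein and help it to fold or to be degraded. HSP70 proteins work in a cycle of ATP binding and hydrolysis, in which J-domain proteins hand over the client and nucleotide exchange factors let it go, and HSP90 proteins take over partly folded clients such as kinases and steroid receptors. Under heat, oxidants or ethanol metabolism, the factor HSF1 leaves its chaperone partners and binds inverted repeats of GAA in the promoters of inducible members. In mitochondria, a barrel of HSP60 with a lid of HSP10 folds imported proteins.

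With ethanol in WT mice, 2 of 10 members rose at an adjusted p under 0.05, *Hspa1b* (1.56-fold) and *Hsph1* (1.46-fold), and none fell, against 6.19% of all genes called higher, 6.52% called lower and 12.7% called in all. With ethanol in KO mice, 2 of 10 rose, *Bag3* (1.63-fold) and *Hsp90aa1* (1.43-fold), and none fell, against 16.3% of all genes called higher, 6.92% called lower and 23.2% called in all. Between genotypes, *Hspa1a* alone was higher in ethanol-fed KO than in ethanol-fed WT mice (3.51-fold), 1 of 10 members against 4.69% of all genes called in all and 4.25% called higher, and its values rest on few reads. None of the 10 differed between the pair-fed genotypes by limma (1.73% of all genes), with 2 at an unadjusted p under 0.05 against 19.9% of all genes. None of the 10 showed a diet effect that differed between the genotypes by limma's interaction term (2.84% of all genes), and 0 of them had an unadjusted p under 0.05 there, against 16.3% of all genes. The shares of members called in each comparison were thus those of 0, 1 or 2 genes of 10, and nothing particular to the set is read from them.

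The table gives 1 value per gene and mouse, made from read counts that were scaled until the mice had almost the same total (32267493 to 32292618 units) and then rounded. A value is called a unit of signal here, and differences are given on the scale of log2(value + 1), which understates the change of genes with low values. Low values lay on steps, whose width is what 1 read became after scaling. From these steps, resolved in 16 mice, the reads on genes were estimated at 5.60 to 29.1 M in pair-fed WT, 8.52 to 44.3 M in pair-fed KO, 24.6 to 52.2 M in the 3 resolved ethanol-fed WT and 7.88 to 45.9 M in ethanol-fed KO mice. The median was 39.5 M in ethanol-fed WT and 11.0 M in ethanol-fed KO mice. *Apoe* itself ranged from 611230 to 798431 units in WT and from 8586 to 108651 units in KO mice, so that some signal on the gene remained in every KO liver. Hepatocyte markers were present in every mouse, with a summed level of 2228285 to 3926688 units over 7 of 7 genes. Most of that sum was *Alb*, with group means of 2007430 to 2435850 units. Ethanol-fed KO mouse 1 went against its female label, with *Xist* at 826 units (15227 to 30379 in the others) and the Y-linked *Ddx3y* at 1077 units (2 to 118 in the others), and calls of members that involve it are also given without it. Labels name each mouse as a sample of its own, and whether mice shared a litter or a cage is not given in the sources used here.

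Per kilobase of annotated exon, the members spanned over 3 orders of magnitude. *Hsp90ab1* was highest, with a median over the 18 mice of 11484 units per kb, followed by *Hspa8* at 10953 units per kb, and the ranges of these 2 overlapped. The mitochondrial pair came next, *Hspd1* at 6316 and *Hspe1* at 3841 units per kb, also with overlapping ranges. *Hsp90aa1*, at 1578 units per kb, overlapped neither *Hspe1* above it nor *Bag3* below it. *Bag3* (463 units per kb), *Dnajb1* (271) and *Hsph1* (248) each overlapped the next in the order, which for *Hsph1* was *Hspa1b* (96.3). *Hspa1a* was lowest, at 4.89 units per kb, and did not overlap *Hspa1b*. Together the 10 genes took a median of 0.318% of the total value in pair-fed WT, 0.358% in pair-fed KO, 0.370% in ethanol-fed WT and 0.374% in ethanol-fed KO mice, and the ranges of the 4 groups overlapped.

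**Figure D1:**
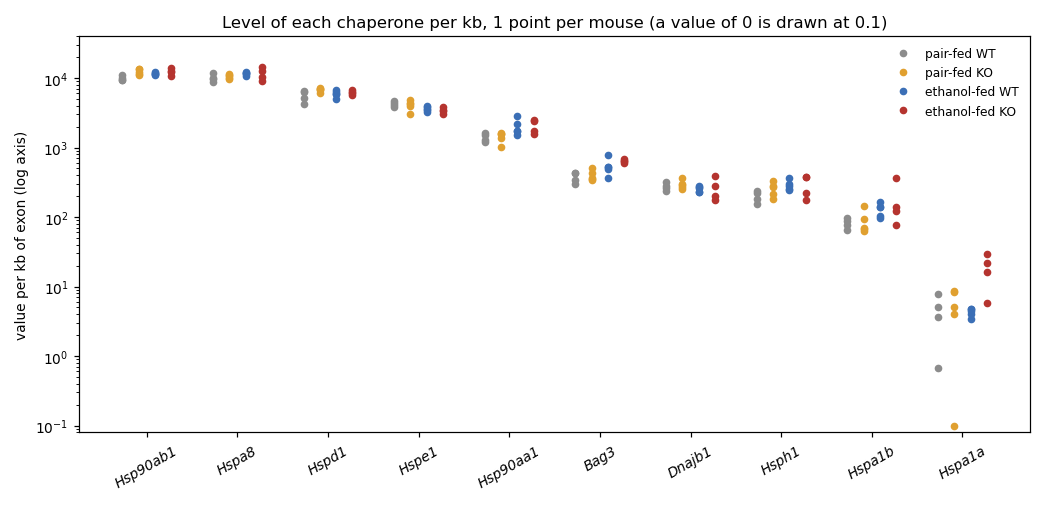
Value per kilobase of annotated exon (y axis, log scale) of each of the 10 chaperones (x axis, in order of the median), with 1 point per mouse and a colour per group; a value of 0 is drawn at 0.1. The order runs from *Hsp90ab1* (median 11484 units per kb) to *Hspa1a* (4.89 units per kb), and *Hspa1a* lies below every other member in all mice.

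*Hspa1a* and *Hspa1b* code for the stress-inducible HSP70 proteins and are near copies of each other. On GRCm38 *Hspa1a* (ENSMUSG00000091971) lies on the minus strand of chromosome 17 from 34969190 to 34972156 and *Hspa1b* (ENSMUSG00000090877) on the same strand from 34956436 to 34959238, with 9951 bases between them, and each is annotated as 1 exon. In windows of 300 bases (250 before and 50 after the annotated start, RefSeq, GRCm38.p6) the 2 promoters differed at 4 positions, C44T, T47C, T249G and C276T, counted from 1 at the 5′ end of the window with the *Hspa1a* base first. The stretch between the differences is shown because it holds the element that HSF1 is known to bind and because it is the same, letter for letter, in both genes. Capitals mark the match to GAANNTTC.
*Hspa1a*, chr17:34972167-34972346, minus strand: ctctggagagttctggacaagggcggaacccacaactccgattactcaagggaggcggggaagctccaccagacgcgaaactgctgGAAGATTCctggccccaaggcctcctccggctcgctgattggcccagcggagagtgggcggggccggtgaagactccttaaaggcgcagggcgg
*Hspa1b*, chr17:34959249-34959428, minus strand: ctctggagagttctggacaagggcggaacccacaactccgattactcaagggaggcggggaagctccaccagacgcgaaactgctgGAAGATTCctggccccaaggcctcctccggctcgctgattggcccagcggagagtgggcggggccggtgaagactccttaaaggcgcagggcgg

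The match begins 104 bases before the annotated start in both genes. A pair of inverted repeats was searched as GAANNTTC or TTCNNGAA, which read the same on either strand, and a run of 3 repeats as GAANNTTCNNGAA or TTCNNGAANNTTC on both strands. Of the 10 members, 7 have a window in the RefSeq table, and *Hspa8*, *Hsp90aa1* and *Hsp90ab1* have none. A pair was found in 6 of the 7 (all but *Dnajb1*), against 15.1% of 32851 windows and 17.0% of 27025 genes with a window. A run of 3 was found in 3 of the 7 (*Hspd1*, *Hspe1* and *Hsph1*), against 0.603% of windows and 0.662% of genes. The matches of *Hspd1* and *Hspe1* are the same bases read from either strand, and those of *Hspa1a* and *Hspa1b* lie in identical sequence. Both counts therefore take in the same sequence more than once and are not counts of independent promoters. These matches describe the letters and say nothing about binding in these livers.

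*Hspa1b* stood at 248, 183, 269 and 217 units in the 4 pair-fed WT mice and at 387, 468, 271, 393 and 290 units in the 5 ethanol-fed WT mice. All ethanol-fed WT values thus lay above all pair-fed WT values, though by only 2 units at the nearest pair. The groups of 14.4% of all genes did not overlap in this contrast. *Hspa1b* rose by 0.64 on the log2 scale with ethanol in WT mice (standard error, SE, 0.186, adjusted p = 0.0380). In KO mice the values were 178, 401, 186, 263 and 198 units when pair-fed and 339, 212, 1028 and 396 units when ethanol-fed. Mouse 4 of the ethanol-fed KO group, at 1028 units, was the highest of all 18, and the other 3 mice of that group lay within the pair-fed range. The log2 difference there was 0.82 (SE 0.369, 95% confidence interval 0.031 to 1.62, adjusted p = 0.125). With single mice left out it ran from 0.39 without ethanol-fed KO mouse 4 (adjusted p = 0.367) to 1.14 without mouse 2 of that group (adjusted p = 0.0362). The rise in WT mice was called in 8 of 16 alternatives, with adjusted p from 0.0141 to 0.192.

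*Hspa1a* was the scarcest member. Its values were 23, 15, 11 and 2 units in pair-fed WT, 0, 25, 26, 15 and 12 units in pair-fed KO, 14, 13, 12, 10 and 14 units in ethanol-fed WT and 17, 48, 86 and 65 units in ethanol-fed KO mice (numbers 1, 2, 4 and 5). The ethanol-fed KO values all lay above the ethanol-fed WT values, with mouse 1 nearest, while the 2 pair-fed groups overlapped them. In the contrast of ethanol-fed genotypes, 8.13% of all genes did not overlap. With ethanol in KO mice, its log2 difference was 2.14 (SE 0.868, 95% interval 0.27 to 4.0, adjusted p = 0.0925), the largest value of any member in that contrast but not a call. Its size leaned on the value of 0 in pair-fed KO mouse 1. With single mice left out it ran from 1.28, without that mouse, to 2.60, and with a pseudocount of 10 it was 1.31. *Hspa1a* was higher by 1.81 on the log2 scale in ethanol-fed KO than in ethanol-fed WT mice (SE 0.459, adjusted p = 0.0413), where the median of all genes was 0.11.

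The reads behind these values were few. The 4 ethanol-fed KO values stand for an estimated 24, 20, 21 and 17 reads, and the 3 resolved ethanol-fed WT values for 23, 15 and 8 reads. Thus the read numbers overlapped while the values did not, since 1 read became 0.704, 2.39, 4.09 and 3.85 units in ethanol-fed KO mice 1, 2, 4 and 5 but 0.618, 0.818 and 1.31 units in ethanol-fed WT mice 1, 3 and 4. Exact Poisson intervals, which cover counting error only, ran from 29.2 to 73.7 units in ethanol-fed KO mouse 2, from 53.2 to 131 units in mouse 4 and from 38.1 to 105 units in mouse 5. All 3 lay above the 21.3 units that bounded the resolved ethanol-fed WT mice, and mouse 1, the most deeply sequenced of its group, had an interval of 10.8 to 25.1 units, which overlapped them. Depth moved with the result, and its part in the result was not tested. The call was kept in 3 of 15 alternatives, with adjusted p from 0.0109 to 0.197. It was lost without any one of the 5 ethanol-fed WT mice or of ethanol-fed KO mice 2, 4 and 5 (adjusted p from 0.0615 to 0.122). Without ethanol-fed KO mouse 1, the mouse that went against its sex label, the difference was 2.28 (adjusted p = 0.0109).

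**Figure D2:**
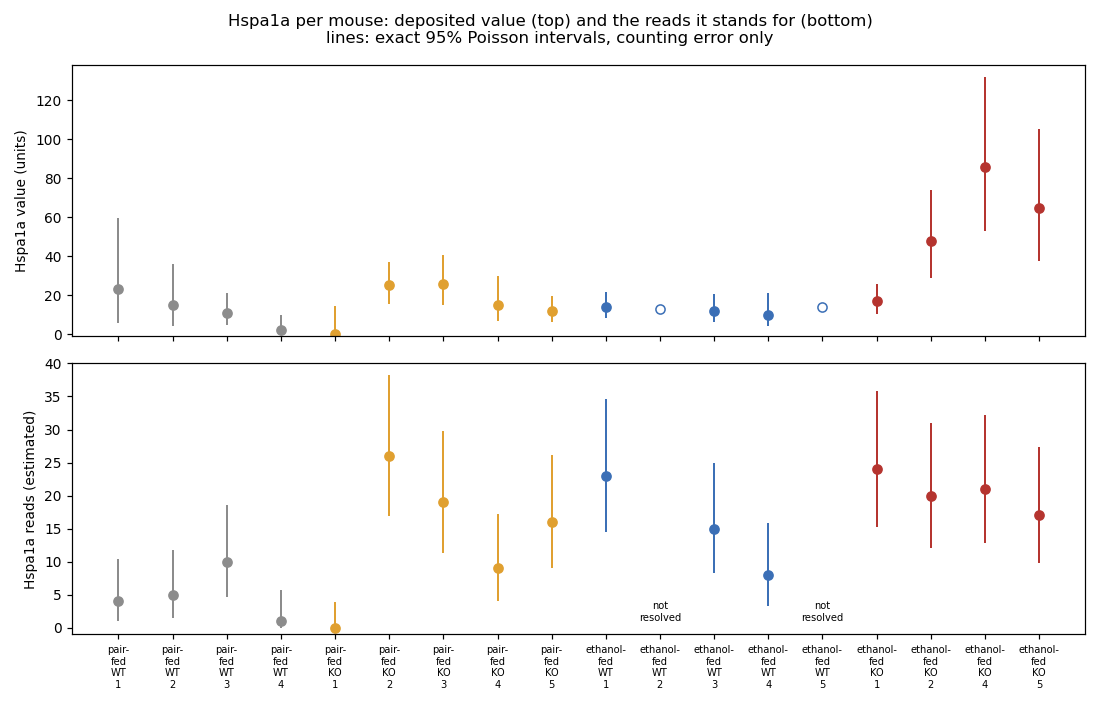
*Hspa1a* in each mouse (x axis), as the deposited value in units (top) and as the estimated number of reads (bottom), with exact 95% Poisson intervals as lines; open points and the words "not resolved" mark the 2 mice whose step could not be found. The ethanol-fed KO values of 17 to 86 units stand for 17 to 24 reads, and the ethanol-fed WT values of 10 to 14 units for 8 to 23 reads.

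Because the copies share sequence, the split of reads between them is uncertain. Of all stretches of 100 bases in the *Hspa1a* transcript, 47.1% occur also in *Hspa1b*, and within the coding part 68.1%. How the counting treated reads that match both is not given in the sources used here. With the 2 genes summed, the 4 ethanol-fed KO mice ranged from 260 to 1114 units and the 5 ethanol-fed WT mice from 283 to 481 units, which overlapped. The summed difference between these genotypes was 0.35 (SE 0.327, adjusted p = 0.634). The summed rise with ethanol in WT mice was 0.61 (SE 0.182, adjusted p = 0.0416), and in KO mice the summed difference was 0.91 (SE 0.355, adjusted p = 0.0804).

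**Figure D3:**
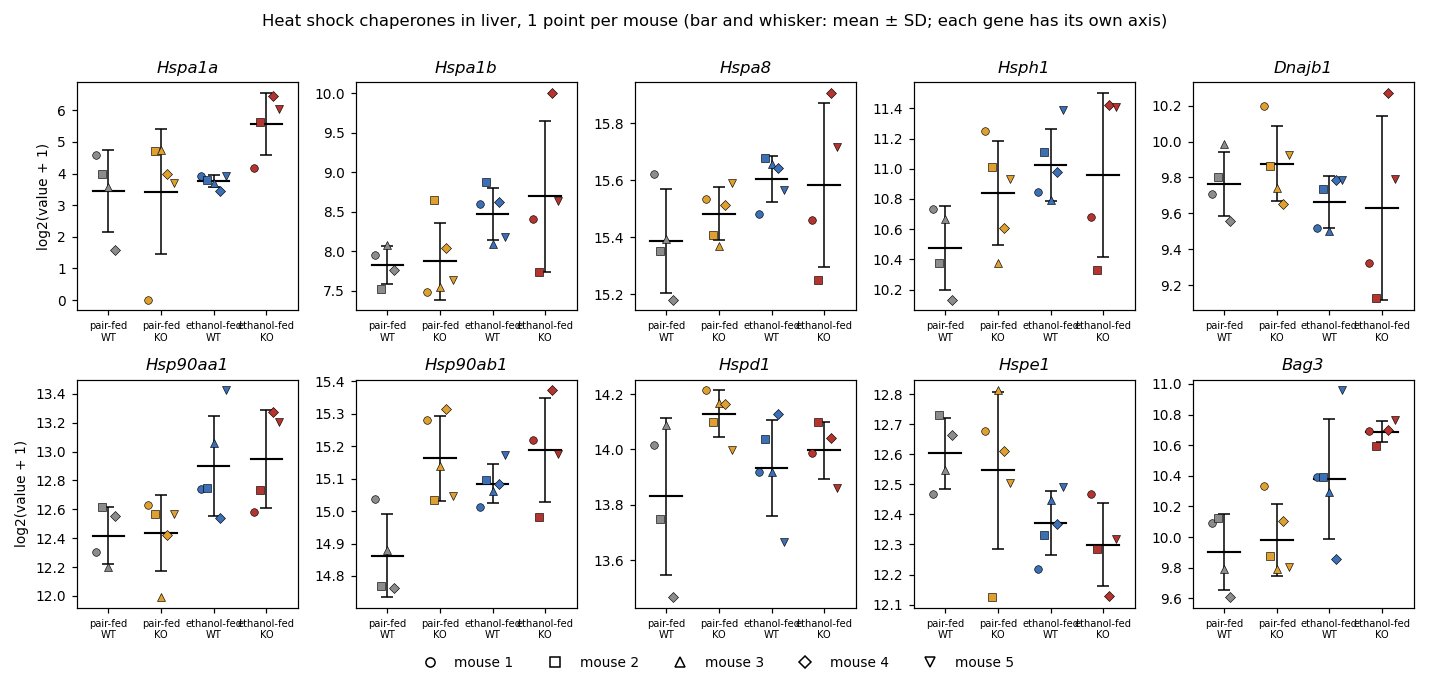
Level of each of the 10 chaperones as log2(value + 1) (y axis, scaled per gene) in the 4 groups (x axis), with 1 point per mouse, its shape giving the mouse number, a horizontal bar at the mean and a whisker of 1 SD. The 4 ethanol-fed KO mice lie close together for *Bag3* (1547 to 1738 units) and far apart for *Hspa1b* (212 to 1028 units).

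*Hspa8* codes for the constitutive cytosolic HSP70 (HSC70), which folds new proteins and uncoats clathrin vesicles. It lies on the plus strand of chromosome 9 from 40800984 to 40810087. Its mean was 43120 ± 5509 units (SD, n = 4) in pair-fed WT, 45881 ± 2906 (SD, n = 5) in pair-fed KO, 49920 ± 2738 (SD, n = 5) in ethanol-fed WT and 49838 ± 9868 (SD, n = 4) in ethanol-fed KO mice. No contrast of *Hspa8* passed the test, and the 95% intervals bound the log2 difference with ethanol to between -0.045 and 0.48 in WT and between -0.18 and 0.38 in KO mice. A change of the size of *Hspa1b* in WT mice (0.64) lies outside both.

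Among the cofactors of HSP70, *Hsph1* codes for HSP110, which exchanges nucleotide on HSP70 and holds unfolded clients. It lies on the minus strand of chromosome 5 from 149614287 to 149636376. A stretch of 30 bases is shown for its inverted pair, TTCNNGAA, in capitals, which lies before the RefSeq start at 149636336 but inside the first exon of the longer gene model. A run of 3 repeats follows past that RefSeq start.
*Hsph1*, chr5:149636352-149636381, minus strand: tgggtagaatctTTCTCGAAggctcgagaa

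*Hsph1* stood at 1700, 1330, 1624 and 1120 units in pair-fed WT mice and at 1836, 2206, 1772, 2020 and 2683 units in ethanol-fed WT mice. These groups did not overlap, as for 14.4% of all genes, with ethanol-fed WT mouse 5 the highest. *Hsph1* rose by 0.55 on the log2 scale with ethanol in WT mice (SE 0.150, adjusted p = 0.0297). In KO mice it stood at 2434, 2066, 1330, 1562 and 1955 units when pair-fed and at 1638, 1287, 2743 and 2718 units when ethanol-fed. Ethanol-fed KO mouse 1 lay within the pair-fed range, mouse 2 below it and mice 4 and 5 above it, and the log2 difference was 0.12 (SE 0.225, adjusted p = 0.738). The diet effects in the 2 genotypes were not shown to differ (interaction -0.42, 95% interval -1.04 to 0.19, adjusted p = 0.513). Between the pair-fed genotypes *Hsph1* had a log2 difference of 0.36, KO above WT (95% interval -0.0018 to 0.72, adjusted p = 0.254 by limma). The rise in WT mice was called in 11 of 16 alternatives. It was lost without pair-fed WT mouse 2 (adjusted p = 0.0847), pair-fed WT mouse 4 (0.0935) or ethanol-fed WT mouse 2 (0.0632).

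*Bag3* codes for a nucleotide exchange factor that links HSP70 to the small heat shock proteins and to selective autophagy. It lies on the plus strand of chromosome 7 from 128523616 to 128546981. The only inverted pair in its window begins at base 43, counted from 1 at the RefSeq start (128523583). *Bag3* stood at 1289, 937, 885, 1100 and 894 units in pair-fed KO mice and at 1655, 1547, 1658 and 1738 units in ethanol-fed KO mice. The 4 ethanol-fed values lay within 191 units of each other and all above the pair-fed range. The groups of 20% of all genes did not overlap in this contrast. *Bag3* rose by 0.71 with ethanol in KO mice on the log2 scale (SE 0.119, adjusted p = 0.00109), where the median of all genes was 0.13. This call was kept in all 16 alternatives run for it, with log2 differences from 0.58 to 0.79 and adjusted p from 0.00053 to 0.00544, and it stood at 0.70 (adjusted p = 0.00340) without ethanol-fed KO mouse 1. In WT mice *Bag3* stood at 1089, 1117, 885 and 778 units when pair-fed and at 1345, 1341, 1254, 925 and 1991 units when ethanol-fed. There 1 ethanol-fed mouse, number 4 at 925 units, lay within the pair-fed range, and the log2 difference was 0.48 (SE 0.186, adjusted p = 0.112). Without that mouse it was 0.61 (adjusted p = 0.0378), and without ethanol-fed WT mouse 5, the highest, it was 0.33 (adjusted p = 0.18). The interaction was 0.23 (95% interval -0.26 to 0.72, adjusted p = 0.675).

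*Dnajb1* codes for HSP40, the J-domain partner that loads clients onto cytosolic HSP70, and lies on the plus strand of chromosome 8 from 83608193 to 83612653. It ranged from 753 to 1012 units in pair-fed WT, from 804 to 1172 in pair-fed KO, from 723 to 883 in ethanol-fed WT and from 559 to 1236 in ethanol-fed KO mice. All 4 groups overlapped. The log2 difference with ethanol was -0.10 (95% interval -0.36 to 0.16) in WT and -0.25 (95% interval -0.67 to 0.18) in KO mice. In this contrast of WT mice *Dnajb1* thus stood apart from *Hspa1b* in sign, though the difference between these genes was not tested.

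The HSP90 pair has an inducible and a constitutive member. *Hsp90aa1* codes for the inducible HSP90 alpha and lies on the minus strand of chromosome 12 from 110690605 to 110702728. *Hsp90ab1* codes for the constitutive HSP90 beta and lies on the minus strand of chromosome 17 from 45567775 to 45573271. *Hsp90aa1* stood at 6336, 6077, 4066, 5477 and 6074 units in pair-fed KO mice and at 6132, 6812, 9883 and 9420 units in ethanol-fed KO mice. Mice 4 and 5 of the ethanol-fed group lay far above the pair-fed range, mouse 2 just above it and mouse 1 within it. *Hsp90aa1* rose by 0.51 on the log2 scale with ethanol in KO mice (SE 0.160, adjusted p = 0.0333). It was called in 10 of 16 alternatives and lost without pair-fed KO mouse 3 (adjusted p = 0.0722) or 4 (0.0585) and without ethanol-fed KO mouse 4 (0.106) or 5 (0.109). Without ethanol-fed KO mouse 1 it was 0.63 (adjusted p = 0.0139).

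In WT mice *Hsp90aa1* stood at 5048, 6278, 4705 and 6016 units when pair-fed and at 6831, 6863, 8533, 5951 and 11004 units when ethanol-fed. Of the ethanol-fed WT mice, 4 lay above the pair-fed range and mouse 4 within it. The log2 difference was 0.48 (SE 0.164, adjusted p = 0.0697), and it ran from 0.35 without ethanol-fed WT mouse 5 (adjusted p = 0.0970) to 0.57 without ethanol-fed WT mouse 4 (adjusted p = 0.0394). The interaction of *Hsp90aa1* was 0.03 (95% interval -0.48 to 0.54, adjusted p = 0.971).

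*Hsp90ab1* was near its pair-fed level in ethanol-fed KO mice, with a log2 difference of 0.02 (95% interval -0.21 to 0.26). With ethanol in WT mice the difference was 0.22 (95% interval -0.0093 to 0.45, adjusted p = 0.196 by limma). Its 4 pair-fed WT values ran from 27797 to 33652 units and its 5 pair-fed KO values from 33535 to 40789 units, with the highest WT mouse just above the lowest KO mouse. The log2 difference between the pair-fed genotypes was 0.30 (SE 0.111, unadjusted p = 0.0167 and adjusted p = 0.156 by limma).

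**Figure D4:**
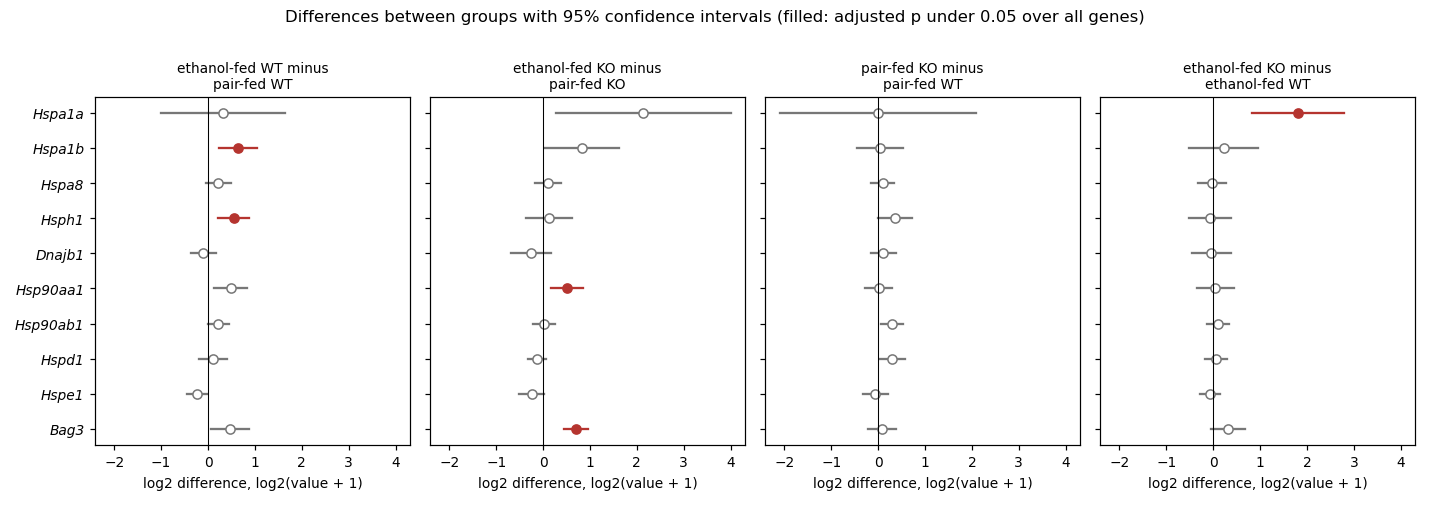
Log2 difference between groups (x axis, on the log2(value + 1) scale) of each chaperone (y axis) in the 4 contrasts, with 95% confidence intervals as lines; filled points have an adjusted p under 0.05 over the 15052 genes. The filled points are *Hspa1b* and *Hsph1* (ethanol-fed against pair-fed WT), *Hsp90aa1* and *Bag3* (ethanol-fed against pair-fed KO) and *Hspa1a* (ethanol-fed KO against ethanol-fed WT), and the *Hspa1a* intervals are the widest in each contrast.

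The mitochondrial pair, *Hspd1* (HSP60) and *Hspe1* (its co-chaperonin HSP10), are neighbours that point away from each other on chromosome 1. *Hspd1* lies on the minus strand from 55077835 to 55088243 and *Hspe1* on the plus strand from 55088132 to 55091307, so that 112 bases are covered by both gene models. Whether reads were counted by strand is not given in the sources used here, and reads in that overlap cannot be assigned. A stretch of 30 bases is shown because it lies upstream of the *Hspe1* start and of a second annotated *Hspd1* start, and because it holds overlapping inverted pairs, in capitals, that join to runs of 3 repeats.
*Hspe1*, chr1:55088054-55088083, plus strand: gtccgTTCTAGAACCTTCCGGAAggccccg

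The capitals begin 89 bases before the RefSeq start of *Hspe1* at 55088148 and fall in an annotated *Hspd1* exon. *Hspd1* had a mean of 14767 ± 2785 units (SD, n = 4) in pair-fed WT and 17943 ± 1019 (SD, n = 5) in pair-fed KO mice. Pair-fed WT mouse 4 was the lowest of all 18, at 11305 units. The log2 difference between the pair-fed genotypes was 0.30 (SE 0.123, unadjusted p = 0.0292 and adjusted p = 0.197 by limma), and without that mouse it was 0.18. With ethanol, *Hspd1* had a log2 difference of 0.10 (95% interval -0.20 to 0.41) in WT and -0.13 (95% interval -0.32 to 0.055) in KO mice.

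*Hspe1* stood at 5659, 6798, 5984 and 6497 units in pair-fed WT and at 4770, 5148, 5590, 5287 and 5762 units in ethanol-fed WT mice. The groups overlapped by 1 mouse on each side, and the log2 difference was -0.23 (SE 0.0973, adjusted p = 0.138). In KO mice it ranged from 4462 to 7199 units when pair-fed and from 4479 to 5664 units when ethanol-fed. The log2 difference of *Hspe1* there was -0.25 (SE 0.126, adjusted p = 0.179), and it ran from -0.35 without pair-fed KO mouse 2, the lowest of its group (adjusted p = 0.0231), to -0.18 without pair-fed KO mouse 3 (adjusted p = 0.352).

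Several members were high or low in the same mice. Ethanol-fed KO mouse 4 was the highest of its group in 7 of 10 members and the highest of all 18 mice in 6. Its estimated depth, 7.88 M reads, was the lowest of its group. Ethanol-fed KO mouse 2 was the lowest of its group in 6 members, pair-fed WT mouse 4 the lowest of its group in 7 and of all mice in 5, and ethanol-fed WT mouse 5 the highest of its group in 5. The spread within a group was therefore shared among several members, and the 10 genes are not 10 independent readings of a condition. How often these mice were highest or lowest over all genes was not counted. Nothing particular to the members is read from these ranks.

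The wider network was read from lists of other chaperone genes. With ethanol in WT mice, 5 of 14 other mitochondrial chaperones and proteases rose and none fell, against 6.19% of all genes called higher, at a median log2 difference of 0.16 over the list against -0.01 over all genes. Those with the lowest adjusted p were *Hspa9*, the mitochondrial HSP70 (0.79, adjusted p = 0.00388), *Lonp1*, a matrix protease (0.61, adjusted p = 0.00492), and *Clpx*, the unfoldase of the ClpXP protease (0.69, adjusted p = 0.0139). In KO mice 6 of the 14 rose and none fell, against 16.3% of all genes called higher, at a median of 0.26 against 0.13 over all genes, and 4 of the 6 remained without ethanol-fed KO mouse 1. The lowest adjusted p belonged to *Dnaja3*, a mitochondrial J-domain protein (0.40, adjusted p = 0.00847), to *Afg3l2*, an inner membrane protease (0.30, adjusted p = 0.0187), and to *Hscb*, a co-chaperone of iron-sulfur cluster assembly (0.64, adjusted p = 0.0218). Several genes of this list were thus called higher where *Hspd1* and *Hspe1* were not, though the difference between them was not tested.

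Of the small heat shock proteins, 4 of 7 were in the table, and *Hspb1*, which codes for HSP27 and is a client-holding partner of BAG3, was the only one that passed. It rose by 0.97 with ethanol in WT mice (adjusted p = 0.00492) and by 0.86 in KO mice (adjusted p = 0.00643). It was also higher by 0.83 in pair-fed KO than in pair-fed WT mice (adjusted p = 0.0199). Of all genes, 6.19% were called higher with ethanol in WT and 16.3% in KO mice, and 1.73% were called between the pair-fed genotypes. Its means were 327 ± 13.9 units (SD, n = 4) in pair-fed WT, 592 ± 129 (SD, n = 5) in pair-fed KO, 665 ± 206 (SD, n = 5) in ethanol-fed WT and 1080 ± 281 (SD, n = 4) in ethanol-fed KO mice.

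Other exchange factors and cofactors of HSP70 split in direction. In WT mice *Bag5* rose (0.50, adjusted p = 0.0428) and *Bag4* fell (-0.58, adjusted p = 0.0277), 2 of 8 against 12.7% of all genes called in all. In KO mice 3 of 8 rose and 1 fell, against 16.3% and 6.92% of all genes. The lowest adjusted p belonged to *Bag5* (0.49, adjusted p = 0.00606), *Bag4* (-0.66, adjusted p = 0.00996) and *Hspbp1* (0.46, adjusted p = 0.0101), a nucleotide exchange factor of HSP70. *Hspa4*, an HSP110 relative of *Hsph1*, was the 1 of 7 in its list that rose in each genotype (0.47, adjusted p = 0.0125 in WT and 0.33, adjusted p = 0.0219 in KO mice). Of all genes, 6.19% in WT and 16.3% in KO mice were called higher.

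Among other J-domain proteins of the cytosol, *Dnaja2* rose in both genotypes (0.43, adjusted p = 0.0263 in WT and 0.30, adjusted p = 0.0196 in KO mice). In this list 1 of 9 rose in WT and 2 of 9 in KO mice, against 6.19% and 16.3% of all genes called higher. Of 12 HSP90 co-chaperones none passed in WT mice by limma (2 at an unadjusted p under 0.05, against 28.1% of all genes). In KO mice *Unc45a*, which folds myosin, rose (0.68, adjusted p = 0.00128), 1 of 12 against 16.3% of all genes called higher. The immunophilin gene *Fkbp4* fell there (-0.32, adjusted p = 0.0423), 1 of 12 against 6.92% called lower. That call was lost without ethanol-fed KO mouse 1 (adjusted p = 0.0658). Of 8 subunits of the cytosolic chaperonin TRiC, *Cct5* rose in WT mice (0.34, adjusted p = 0.0468) and 2 rose in KO mice, against the same 6.19% and 16.3%. Of the 4 heat shock factors and their regulator, none passed in WT mice by limma (1 at an unadjusted p under 0.05, against 28.1% of all genes). In KO mice *Hsf4* fell (-0.51, adjusted p = 0.0184), 1 of 4 against 6.92% of all genes called lower. *Hsf1*, which codes for the main stress-activated factor, passed in neither genotype. Between the ethanol-fed genotypes, 1 gene of all these lists passed, *Hscb*, at 0.71 (adjusted p = 0.0405), and without ethanol-fed KO mouse 1 it was 0.74 (adjusted p = 0.0575). Of all genes, 4.69% were called in that contrast. The other genes of these lists whose call in KO mice is given here by name kept it without that mouse.

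**Figure D5:**
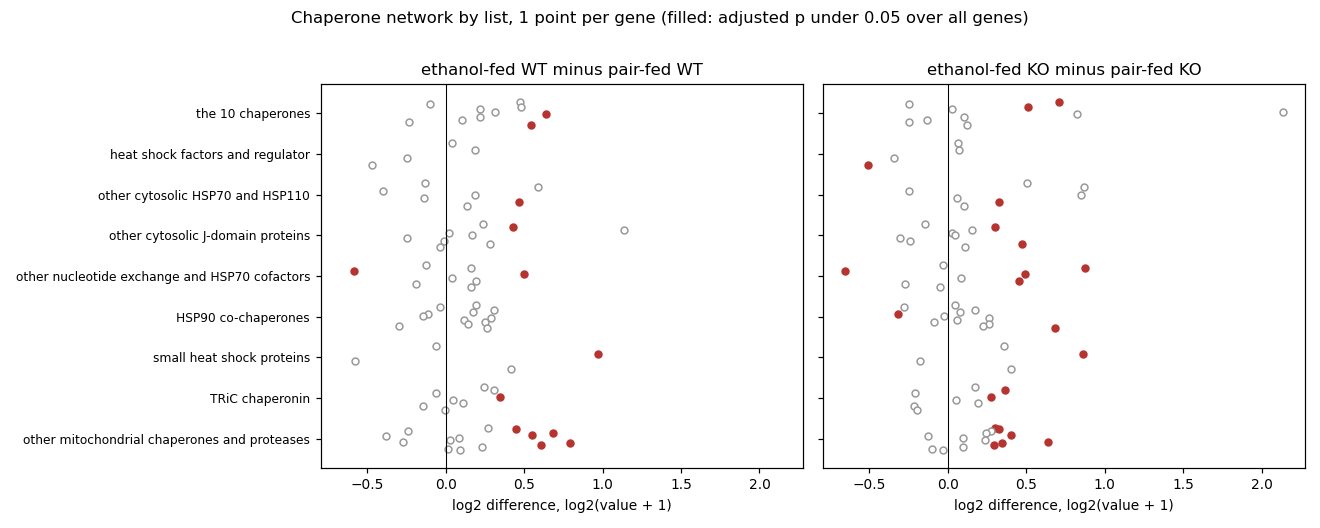
Log2 difference with ethanol (x axis, on the log2(value + 1) scale) in WT mice (left) and KO mice (right) of the 10 chaperones and of the genes in 8 other lists (y axis), with 1 point per gene; filled points have an adjusted p under 0.05 over the 15052 genes. In the list of mitochondrial chaperones and proteases, 5 of 14 genes are filled on the left and 6 of 14 on the right, all above 0.

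Markers of liver cell types moved with some of the same contrasts. Of all genes, 6.19% were called higher and 6.52% lower with ethanol in WT mice. With ethanol in KO mice these shares were 16.3% and 6.92%. Between the ethanol-fed genotypes 4.25% of all genes were called higher. Of 7 hepatocyte markers, 2 rose and none fell with ethanol in WT mice. In KO mice *Cps1* rose (0.82, adjusted p = 0.00392 by limma) and *Cyp2e1* fell (-1.07, adjusted p = 0.000476). Both calls were kept without ethanol-fed KO mouse 1 (adjusted p = 0.0112 and 0.00133). No hepatocyte marker was called between the ethanol-fed genotypes, against 4.69% of all genes. With ethanol, 4 of 5 endothelial markers rose in each genotype, with summed levels of 3398 to 4194 units in pair-fed WT and 4832 to 6473 in ethanol-fed WT, and of 2955 to 4230 in pair-fed and 5168 to 8436 in ethanol-fed KO mice. With ethanol in WT mice, 2 of 9 macrophage markers fell, *Clec4f* (-0.73, adjusted p = 0.0177) and *Csf1r* (-0.62, adjusted p = 0.0320), at summed levels of 8147 to 14240 units when pair-fed and 5081 to 8813 when ethanol-fed. With ethanol in KO mice, 6 of 7 stellate cell and fibroblast markers rose (9253 to 12955 units summed when pair-fed, 17192 to 31366 when ethanol-fed) and 4 of 9 macrophage markers (6280 to 13473 and 11586 to 19599 units). Between the ethanol-fed genotypes, 7 of 9 macrophage markers were higher in KO mice and 2 of 7 stellate cell markers (9303 to 15572 units summed in WT mice). The cholangiocyte marker *Krt19*, 1 of 4 in its list, fell with ethanol in WT mice (-1.86, adjusted p = 0.0201), rose in KO mice (1.32, adjusted p = 0.0303) and was higher in ethanol-fed KO than in ethanol-fed WT mice (2.05, adjusted p = 0.0445). None of the lymphocyte or neutrophil markers passed in these 3 contrasts by limma. With ethanol in WT mice, 3 of 6 and 1 of 3 had an unadjusted p under 0.05 by limma, against 28.1% of all genes. In the other 2 contrasts 0 of each did, and the share of all genes is not given there. Without ethanol-fed KO mouse 1, 7 macrophage and 2 stellate cell markers were called between the ethanol-fed genotypes, and 5 and 6 with ethanol in KO mice. None of these markers was at 0 in all mice of a group. They moved beside the calls of *Hspa1b*, *Hsph1*, *Bag3*, *Hsp90aa1* and *Hspa1a*, and their part in those results was not tested. In whole liver, more cells of a type and more RNA per cell cannot be told apart.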

How the data were processed

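Liver poly(A) RNA of 18 mice was sequenced. The authors extracted RNA with TRIzol and, per the labels and the study's methods, used FastQC, Trimmomatic, HISAT2, SAMtools and featureCounts on GRCm38. Versions, read length and strand setting are not given in the sources used here. The deposited values are a signal: counts of reads on each gene that were scaled, by an undescribed step, until totals were almost equal, and rounded. The authors' own DESeq2 columns (mean, log2 fold changes with errors, p-values and ranks) were not used. A repeat line was dropped for genes listed more than once (195 lines of 56 genes).

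Log2(value + 1) was fitted with limma 3.58.1 in R 4.3.3 (empirical Bayes, trend on the mean level), and p-values were adjusted by Benjamini-Hochberg over 15052 genes. Each contrast used the mice of its 2 groups, and the interaction used all 18. A gene was called at an adjusted p under 0.05. Reads were estimated from the step of low values (0.15 to 7 units per read, accepted at a log-likelihood lead of 10), a method that recovered 4 of 4 simulated steps within 1%, and their number sets the precision of low values. The limma fit was also run on simulated data, whose outcome is not given here and in which no gene as scarce as *Hspa1a* was changed. Gene positions and lengths came from GENCODE M21 (GRCm38) and promoter windows from RefSeq (GRCm38.p6). Python 3.11.15, pandas 2.3.3, scipy 1.17.1 and matplotlib 3.10.9 were used.

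All 10 members are named whatever their values, and of each other list at most the 3 called genes with the lowest adjusted p in a contrast. For *Hsph1* and *Hspd1* the 5 genes most alike by Pearson's r are named as well. The members and lists were chosen with earlier results of these data known. Alternatives were other scaling, a filter on low values, 10 as the pseudocount, a fit of all groups, quality weights, a block on mouse numbers, summed *Hspa1a* and *Hspa1b*, and leaving out each mouse.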

Additional observations from a re-analysis of the deposited data

Results flagged for a closer look

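In the search for a mouse far from the rest of its group, 40 groups of values (10 members in 4 groups) were looked at and 1 stood out, where chance gives about 1 in 20, or about 2. *Hspa1a* in pair-fed KO mouse 1 was the lowest of 5, and its gap to the nearest mouse took 0.778 of the range of the group on the log2(value + 1) scale. Its value was 0 units, against 25, 26, 15 and 12 units in the other mice of the group. In that mouse 1 read stands for 3.79 units, and a count of 0 has an exact Poisson interval that reaches 14.0 units, which takes in the 12 units of mouse 5.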

How the results depend on the processing

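Log2 differences are on the log2(value + 1) scale, and the differences that changed sign were uncalled in every case. The 1 member called between the ethanol-fed genotypes became 0 with size factors, with all 4 groups in the fit, with array quality weights and with *Hspa1a* and *Hspa1b* summed. The 2 called with ethanol in WT mice became 0 with all 4 groups in the fit, and the 2 in KO mice became 1 with size factors. When single mice were left out, the counts ran from 0 to 1 between the ethanol-fed genotypes, from 0 to 3 with ethanol in WT mice and from 1 to 3 in KO mice, and stayed at 0 in the other 2 comparisons. The other lists were also run without ethanol-fed KO mouse 1, an alternative chosen after seeing the data. Leaving out a mouse leaves fewer mice in the fit, and otherwise the cause was not tested.

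Size factors moved the median of all genes by -0.13 between the ethanol-fed genotypes, -0.12 with ethanol in KO mice and -0.14 for the interaction. Over all genes they gave 380 higher and 126 lower calls where the deposited scale gave 639 and 67 between the ethanol-fed genotypes, 1656 and 1607 against 2446 and 1042 with ethanol in KO mice, and 294 and 84 against 392 and 36 for the interaction. Signs turned with size factors for *Hsp90aa1* (-0.082), *Hsp90ab1* (-0.025) and *Hspd1* (-0.065) between the ethanol-fed genotypes, *Hspa1a* (0.0022) between the pair-fed genotypes, *Hspa8* (-0.025), *Hsph1* (-0.0023) and *Hsp90ab1* (-0.10) with ethanol in KO mice, and *Hsp90aa1* (-0.11) for the interaction. With array quality weights they turned for *Hspa1b* (-0.011) between the ethanol-fed genotypes, *Hspa1a* (0.091) and *Hsp90aa1* (-0.045) between the pair-fed genotypes, *Hsp90ab1* (-0.0096) with ethanol in KO mice, and *Hspa1b* (-0.085) and *Hspe1* (0.038) for the interaction. With a pseudocount of 10 the sign turned for *Hspa1a* (0.13) between the pair-fed genotypes. Calls were gained for *Hspa1a* with ethanol in KO mice at that pseudocount (1.31, adjusted p = 0.0419 by limma) and for *Hsp90aa1* with ethanol in WT mice with size factors (0.50, adjusted p = 0.0434), while *Hsp90aa1* in KO mice lost its call with size factors (0.39, adjusted p = 0.0675).

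Same-numbered mice deviated together with a mean r of -0.048 to 0.135 over the 4 contrasts, and in no contrast was every r above 0.1. Between the ethanol-fed genotypes the mean r was 0.135 for same-numbered mice and -0.033 for mice of other numbers. With 4 pairs in a contrast these values cannot settle whether the mouse numbers mark a pairing, and the main fit used none. With a block on the mouse number, 0 members were called between the ethanol-fed genotypes and 0 with ethanol in WT mice. *Hspa1a* between the ethanol-fed genotypes was then 1.80 (adjusted p = 0.0555 by limma), *Hspa1b* and *Hsph1* with ethanol in WT mice 0.71 (0.0672) and 0.45 (0.0964), *Hsp90aa1* in KO mice 0.40 (0.0781) and *Hspa1a* in KO mice 2.47 (0.0219). Signs turned with the block for *Hsp90aa1* (-0.016) between the pair-fed genotypes and *Hspe1* (0.014) for the interaction.

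Of the single-gene differences with a mouse left out, 462 kept their sign and call, 53 changed sign, 21 lost a call and 4 gained one. The results that changed sign for any mouse had the following ranges. Between the ethanol-fed genotypes, *Dnajb1* ran from -0.25 to 0.13, *Hsp90aa1* from -0.062 to 0.18, *Hspa1b* from -0.21 to 0.54, *Hspa8* from -0.13 to 0.089, *Hspd1* from -0.0041 to 0.11 and *Hsph1* from -0.22 to 0.15. Between the pair-fed genotypes, *Bag3* ran from -0.021 to 0.15, *Hsp90aa1* from -0.056 to 0.13, *Hspa1a* from -0.63 to 0.85, *Hspa1b* from -0.15 to 0.14 and *Hspe1* from -0.12 to 0.049. With ethanol in WT mice, *Hspa1a* ran from -0.30 to 0.70 and *Hspd1* from -0.018 to 0.19. With ethanol in KO mice, *Hsp90ab1* ran from -0.037 to 0.093, *Hspa8* from -0.0079 to 0.21 and *Hsph1* from -0.031 to 0.33. For the interaction, *Dnajb1* ran from -0.36 to 0.017, *Hsp90aa1* from -0.083 to 0.16, *Hspa1b* from -0.25 to 0.50 and *Hspe1* from -0.12 to 0.051.

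Depth limits the low values. In the shallowest mouse 1 read stands for 5.76 units, and taking 1 unit as 1 read would move the mean estimated reads of *Hspa1a* from 5 to 12.75 in pair-fed WT and from 20.5 to 54 in ethanol-fed KO mice.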

Other observations

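The genes whose log2(value + 1) was most like that of *Hsph1* over the 18 mice were *Slc30a5* (Pearson r = 0.925), *Zmym1* (0.910), *Dhx29* (0.869), *Nop16* (0.851) and *Strn3* (0.843). For *Hspd1* they were *Bckdha* (0.936), *Ugt1a1* (0.933), *Uqcrc2* (0.928), *Plg* (0.925) and *Acadvl* (0.922), of which *Bckdha*, *Uqcrc2* and *Acadvl* code for mitochondrial proteins. Spearman's rho for the same genes was 0.819 to 0.942 with *Hsph1* and 0.812 to 0.858 with *Hspd1*, for which each rho was below the Pearson r. The points share libraries, groups and depth, and the values are a description of 18 mice. None of the other members was among either set of 5.

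Among 7 immediate early genes, *Atf3*, which codes for a stress-induced transcription factor, rose with ethanol by 3.96 in WT mice (adjusted p = 0.00226) and by 3.33 in KO mice (adjusted p = 8.9e-05), on the log2 scale. Its values ran from 55 to 127 units in pair-fed WT, from 76 to 306 in pair-fed KO, from 224 to 4627 in ethanol-fed WT and from 1223 to 2265 in ethanol-fed KO mice. It was the only gene of that list that passed in WT mice, against 12.7% of all genes called in all. In KO mice *Jun* rose too (0.87, adjusted p = 0.0135) and *Ier2* fell (-0.59, adjusted p = 0.0202), where 16.3% of all genes were called higher and 6.92% lower.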
